A study of Homo sapiens with 4 samples.

Results

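The 10 genes described here encode CXC and CC chemokines, namely CXCL1, CXCL2, CXCL3, CXCL5, CXCL6, IL8 (also written CXCL8), CXCL10, CXCL16, CCL2, and CCL20. They are 10 of the 20372 genes of the deposited table, chosen by name with their counts at 24 h and 6 h in view, so the change between these times is described and not tested for them. RNA was sequenced from TPC1 cells, an established human thyroid cancer cell line that carries a CCDC6-RET rearrangement, grown in DMEM with 10% FBS. The cells of all 4 libraries had received the RET inhibitor BLU6864, for 24 h in one group (BLU24H) and for 6 h in the other (BLU6H), with 2 libraries in each. The labels give the dose as 100 µM and the methods as 100 nM, and a re-analysis is noted in the labels of the 24 h libraries. No source says whether the libraries of a time point came from separate cultures, so P values measure the spread between these libraries, which may be technical. Vehicle libraries were not analysed here, and the inhibitor and the time in culture cannot be told apart. Only the 24 h libraries carry the re-analysis label, so whatever it marks cannot be told apart from time either.

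Total counts lay between 23917056 and 27457040 per library. The thyroid factor PAX8 had between 19124 and 22978 reads in each library, whereas the thyroid genes NKX2-1 and TSHR had 0 reads in every library and thyroglobulin (TG) had at most 245. Of 12 white blood cell markers, 7 had at most 3 reads in every library, MS4A1 was at 0, and PTPRC had at most 5. Their summed normalized count was 110 and 111 at 24 h and 108 and 101 at 6 h. This even sum joins opposite changes. CD14 had 85 and 91 reads at 24 h and 47 and 41 at 6 h, and CSF1R had 7 and 7 against 31 and 30. Of 8 fibroblast and endothelial markers, 3 had at most 3 reads in every library and COL3A1 was at 0, but the sum was 241 and 228 at 24 h against 920 and 909 at 6 h. KDR held much of the 6 h sum, with 485 and 517 reads at 6 h and 44 and 22 at 24 h. By the cutoffs given further on, KDR, PDGFRB, VWF, CSF1R, TG, and KRT19 fell and CD14, LUM, and FOXE1 rose at 24 h. VWF and LUM did not pass with DESeq2 or without some libraries, VWF without BLU24H replicate 1, BLU24H replicate 2, or BLU6H replicate 1, and LUM without BLU24H replicate 1 or BLU6H replicate 2. The part of these markers in the results was not tested.

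Chemokines are small secreted proteins that draw white blood cells along a gradient by binding G protein-coupled receptors. The CXC members with a glutamate-leucine-arginine motif (CXCL1, CXCL2, CXCL3, CXCL5, CXCL6, and IL8) act on CXCR2, and IL8 and CXCL6 also on CXCR1, and attract neutrophils. CXCL10 is induced by interferon and attracts T cells through CXCR3, CXCL16 is made as a membrane protein and binds CXCR6, CCL2 attracts monocytes through CCR2, and CCL20 binds CCR6. Many of these genes are induced through NF-κB, which binds κB elements in their promoters, and their mRNAs are short lived in resting cells. Chemokines have been described as products of oncogenic RET signaling in thyroid cells.

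The promoters are shown first, because most of them share an element while the genes differed in level and in change. RefSeq promoters of build GRCh38.p14, from 250 bases before to 50 bases after the start site, matched 8 of the 10 genes, all but CXCL16 and CCL2. Each stretch below reads 5′ to 3′ along the gene. Capitals mark the κB element, which is GGAATTTCC or its reverse complement in the CXC genes and a match to the NF-κB consensus in CCL20.
CXCL1, chr4:73869290-73869392, + strand: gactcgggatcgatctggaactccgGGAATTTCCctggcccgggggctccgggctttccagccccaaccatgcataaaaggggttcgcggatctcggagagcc
CXCL2, chr4:74099196-74099297, - strand: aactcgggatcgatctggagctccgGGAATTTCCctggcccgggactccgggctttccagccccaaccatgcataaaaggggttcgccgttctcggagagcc
CXCL3, chr4:74038690-74038792, - strand: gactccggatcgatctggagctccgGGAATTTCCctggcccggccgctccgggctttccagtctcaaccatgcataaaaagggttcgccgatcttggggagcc
IL8, chr4:73740453-73740561, + strand: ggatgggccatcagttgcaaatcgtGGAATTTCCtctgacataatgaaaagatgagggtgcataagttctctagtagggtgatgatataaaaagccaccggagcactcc
CXCL6, chr4:73836564-73836672, + strand: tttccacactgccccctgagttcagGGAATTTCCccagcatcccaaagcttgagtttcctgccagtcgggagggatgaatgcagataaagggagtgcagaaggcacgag
CXCL10, chr4:76023590-76023698, - strand: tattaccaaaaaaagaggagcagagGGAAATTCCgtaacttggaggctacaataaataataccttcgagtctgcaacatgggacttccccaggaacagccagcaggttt
CCL20, chr2:227813738-227813841, + strand: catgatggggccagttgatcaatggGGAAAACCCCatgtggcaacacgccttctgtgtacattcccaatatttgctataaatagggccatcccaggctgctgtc

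The element GGAATTTCC, searched on both strands, was found in 7 of the 8 promoters and in 0.461% of all 35116 RefSeq promoters of this length. These letters were chosen after the chemokine promoters had been read. In CXCL1 and CXCL3 the element began 78 bases before the start site, in CXCL2 77, in CXCL6 89, in CXCL5 90, and in IL8 91. In CXCL10 it lay farther out, at 176 bases, on the opposite strand. The broader NF-κB consensus, which overlaps this element, was matched in 7 of the 8 promoters and in 5.91% of all promoters, in CCL20 at 79 bases before the start site but not in IL8.

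Other elements divided the genes. TGANTCA, an AP-1 element, was found only in IL8 among the 8 promoters and in 7.71% of all promoters. The core of an interferon response element, GAAA, any 2 bases, and GAAA again, was found only in CXCL10, 221 bases before its start, and in 3.57% of all promoters. TATAAA was matched in IL8 and CCL20 (11.5% of all promoters), and GCATAAAA in CXCL1, CXCL2, and CXCL3 (0.746%), in each of the 3 at 32 bases before the start. GGGCGG, a GC box, was found in CXCL1, CXCL3, and CXCL6 and in 45.0% of all promoters. Over the 250 bases before the start, CXCL1 and CXCL3 were identical in 81.4% of aligned columns, CXCL2 and CXCL3 in 73.3%, CXCL1 and CXCL2 in 189 of 278 columns, and CXCL5 and CXCL6 in 85.3%. A match is a description of the letters and not of binding.

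**Figure D1:**
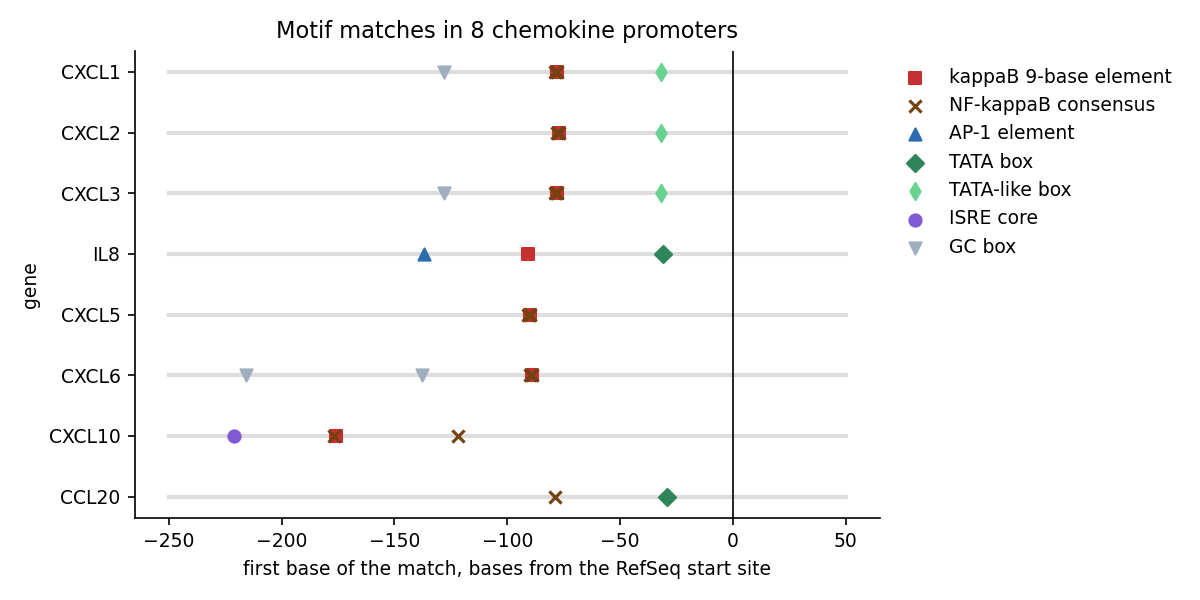
Positions of motif matches in the promoters of 8 chemokine genes, with the distance of the first base of each match from the RefSeq start site in bases on the horizontal axis and 1 row per gene. The 9-base κB element lies between 77 and 91 bases before the start in 6 of the CXC genes and at 176 bases in CXCL10.

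Of the 10 chemokine genes, 8 had enough reads for the comparison of 24 h with 6 h, and CXCL5 and CXCL6 did not. At 24 h, the libraries of 3 genes (CXCL2, CXCL16, and CCL2) lay above both 6 h libraries, and those of 5 genes (CXCL1, CXCL3, IL8, CXCL10, and CCL20) lay below. Libraries were separated in these directions in 41.0% and 40.8% of all 12876 genes compared, and separation in either direction was found in 81.8%. A log2 fold change over 0.5 was seen in CXCL16 and CCL2 and one under -0.5 in CXCL3, IL8, and CCL20, where 19.0% and 19.2% of all genes lie, and CXCL1, CXCL2, and CXCL10 stayed within 0.5 of 0, as did 61.8% of all genes. The median log2 fold change of the 8 genes was -0.37, beside 0.0029 for all genes compared. In bulk RNA, fewer cells that express a gene and less RNA per cell cannot be told apart.

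**Figure D2:**
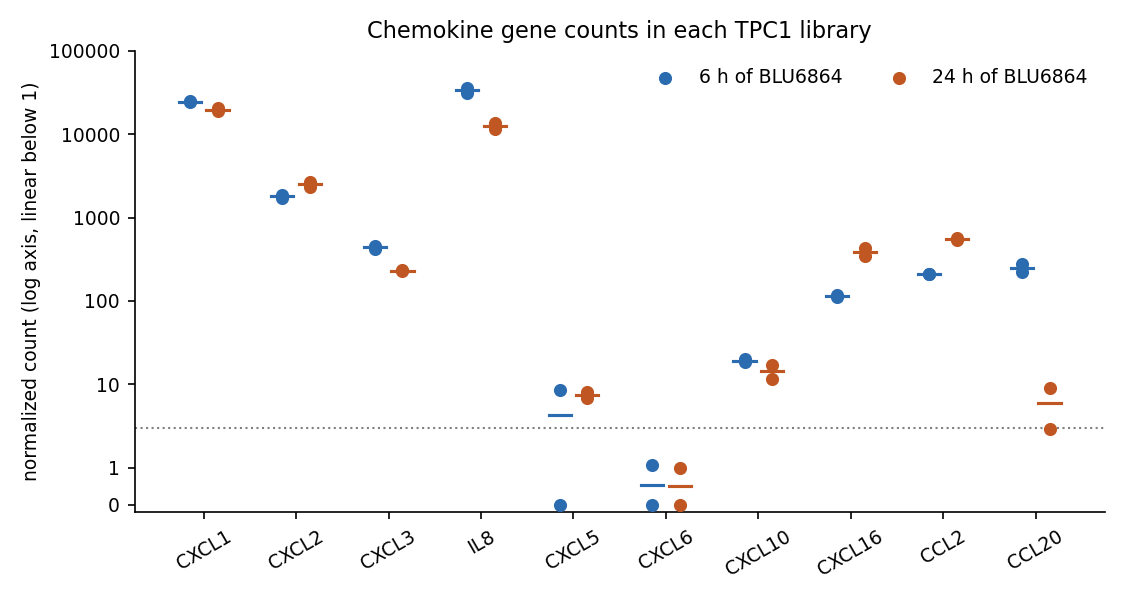
Normalized counts of the 10 chemokine genes in each library, on a log axis that is linear below 1, with 6 h of BLU6864 in blue and 24 h in orange. Points are libraries, short lines are the means of 2 libraries, and the dotted line marks 3 counts. CCL20 went from 275 and 223 normalized counts at 6 h to 8.97 and 2.92 at 24 h, while CXCL16 and CCL2 were higher at 24 h.

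CCL20 (ENSG00000115009, chromosome 2 of hg19, 228678558 to 228682272), the ligand of CCR6, differed most. It had 255 and 232 reads at 6 h and only 9 and 3 at 24 h. In normalized counts this was 249 ± 37.3 (SD, n = 2) at 6 h and 5.94 ± 4.28 at 24 h. Both 24 h libraries were far below both 6 h libraries, and the 24 h level was 2.39% of that at 6 h. Pooled reads, relative to library size, were 41.9-fold lower at 24 h, with a 95% exact interval from 23.8 to 81.6 that covers counting error only. The log2 fold change was -5.36 (standard error 0.274). The 24 h libraries differed from each other by 3.07-fold, and the value was -6.34 without BLU24H replicate 1 and -4.76 without BLU24H replicate 2.

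IL8 (ENSG00000169429, chromosome 4, 74606223 to 74609433), the neutrophil attractant interleukin 8, had the most reads of the 10 genes over the 4 libraries. At 6 h its normalized counts were 30960 and 35915, and at 24 h they were 13642 and 11676. Both 24 h values were lower than both 6 h values, by far more than the 1.17-fold and 1.16-fold differences between libraries of one time. The log2 fold change was -1.40 (standard error 0.0912), and the 24 h level was 37.9% of that at 6 h. It ranged from -1.51 to -1.29 over all alternatives.

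CXCL1, CXCL2, and CXCL3 are the closely related GRO chemokines, which act on CXCR2, and they did not share a direction. CXCL1 (ENSG00000163739, chromosome 4, 74735110 to 74736959) had 24630 and 24382 normalized counts at 6 h and 20551 and 18812 at 24 h. The change was small, at -0.32 on the log2 scale (standard error 0.0802), although the libraries did not overlap. CXCL3 (ENSG00000163734, chromosome 4, 74902306 to 74904524) was lower at 24 h as well, with 422 and 458 normalized counts at 6 h and 234 and 227 at 24 h. This is -0.93 on the log2 scale (standard error 0.106), and its 2 libraries at 24 h differed by only 1.03-fold. CXCL2 (ENSG00000081041, chromosome 4, 74962752 to 74965010) was higher at 24 h, with 2652 and 2350 normalized counts against 1847 and 1734 at 6 h. This is 0.48 on the log2 scale (standard error 0.0746), which stayed between 0.40 and 0.57 over all alternatives. Within a library, the level of CXCL2 per length was 4.22 and 3.65 times that of CXCL3 at 6 h and 10.9 and 9.99 times at 24 h. These ratios do not depend on the scaling between libraries. The 3 genes are close in sequence, and the sources used here do not say how reads that match more than one of them were counted.

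CXCL5 and CXCL6, a further pair of CXCR2 ligands in the same region, were barely detected. CXCL5 (ENSG00000163735, chromosome 4, 74861359 to 74864496) had 8 and 7 reads at 24 h and 8 and 0 at 6 h, so the time points overlap. CXCL6 (ENSG00000124875, chromosome 4, 74702214 to 74714781) had 1 and 0 reads at each time, and no fold change is given. Both promoters hold the κB element printed above for CXCL6, as do those of the abundant CXCL1 and IL8.

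CXCL10 (ENSG00000169245, chromosome 4, 76942273 to 76944650), the interferon-induced ligand of CXCR3, was low throughout. It had 17 and 21 reads at 6 h and 17 and 12 at 24 h. After scaling for library size these were 18.4 and 20.1 against 16.9 and 11.7, so the libraries were separated only narrowly. The log2 fold change was -0.43, beside a standard error of 0.374. At this depth, the 95% exact interval of the ratio of 6 h to 24 h, from 0.812 to 2.27, includes no change. The gene lies within the span of ART3, which had at most 1 read in any library.

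CXCL16 (ENSG00000161921, chromosome 17, 4636821 to 4643217), the membrane-bound ligand of CXCR6, was higher at 24 h. Its libraries had 112 and 118 normalized counts at 6 h and 350 and 425 at 24 h. The log2 fold change was 1.75 (standard error 0.131), which corresponds to a 3.36-fold higher level. The 24 h libraries differed from each other by 1.22-fold, well under the difference between times. Its span overlaps that of MED11 between 4636821 and 4636905, which had a log2 fold change of -0.16.

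CCL2 (ENSG00000108691, chromosome 17, 32582304 to 32584222), the monocyte attractant MCP-1, was also higher at 24 h. It had 213 and 207 normalized counts at 6 h and 538 and 572 at 24 h. The libraries of each time were within 1.06-fold of each other, and the log2 fold change was 1.40 (standard error 0.104). This is a 2.64-fold higher level at 24 h. CCL2 and CXCL16 were thus higher at 24 h in the same bulk libraries in which IL8 and CCL20 were lower.

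**Figure D3:**
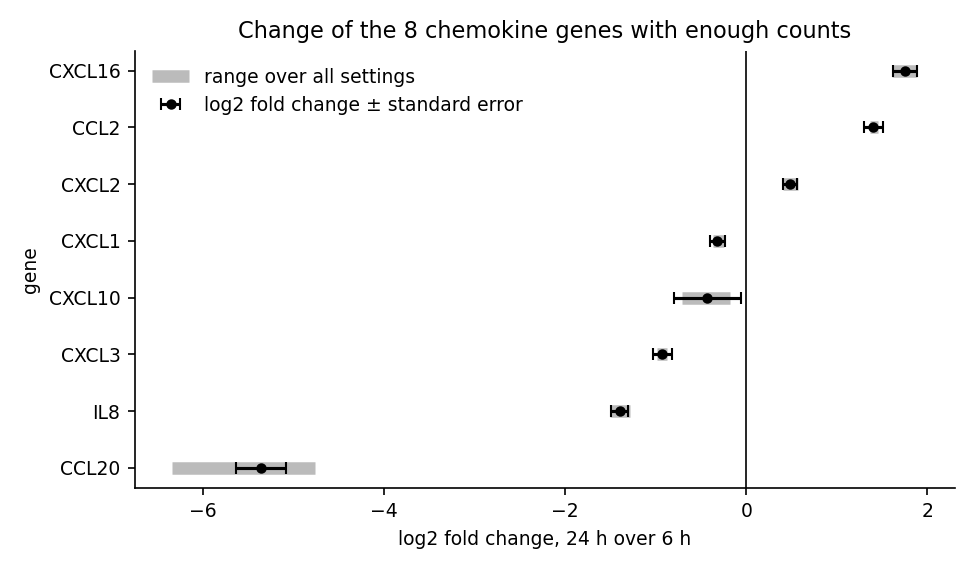
Log2 fold change between 24 h and 6 h of the 8 chemokine genes with enough reads, with positive values higher at 24 h. Points and bars are the value and its standard error, and grey bands give the range over all alternatives. The band for CCL20 runs from -6.34 to -4.76, and no band reaches 0. The alternatives reuse the same libraries, which were already separated by time, so this adds no support.

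The levels of different genes were compared per length, as reads per length of the longest protein-coding transcript and per library size (RPKM). At 6 h, CXCL1 (798 ± 5.72 RPKM, SD, n = 2) and IL8 (779 ± 81.6 RPKM) were on a par, since the IL8 libraries lay on either side of those of CXCL1. They ranked 58 and 60 among the 12566 genes with a length that were compared. CXCL2 followed with 61.4 RPKM, CXCL3 with 15.6, CCL20 with 11.3, CCL2 with 7.05, and CXCL16 with 1.89. CXCL10, CXCL5, and CXCL6 were under 1 RPKM, and the libraries of CXCL5 and CXCL6 overlap.

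At 24 h, the order of levels below CXCL1 was another one. CXCL1 was at 641 ± 40.1 RPKM, with rank 77, and IL8 was at 295 ± 32.4 RPKM, with rank 177. CXCL2 was at 85.8 RPKM and CCL2 at 18.6, now above CXCL3 at 8.20. CXCL16, at 6.37, was below CCL2 as at 6 h. CCL20, at 0.271 ± 0.195 RPKM, was not separated from CXCL10 at 0.466 ± 0.121.

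Together the 10 genes took 0.227% and 0.245% of all counts at 6 h and 0.144% and 0.128% at 24 h. CXCL1 and IL8 made up 93.8% and 94.5% of their summed RPKM at 6 h and 88.8% and 88.5% at 24 h. IL8 alone went from 44.4% and 48.5% to 28.6% and 27.2%, while CXCL1 went from 49.4% and 46.0% to 60.2% and 61.3%. Within a library, the level of IL8 per length was 0.899 and 1.05 times that of CXCL1 at 6 h and 0.475 and 0.444 times at 24 h. CXCL2 took 3.90% and 3.44% at 6 h and 8.18% and 8.06% at 24 h.

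**Figure D4:**
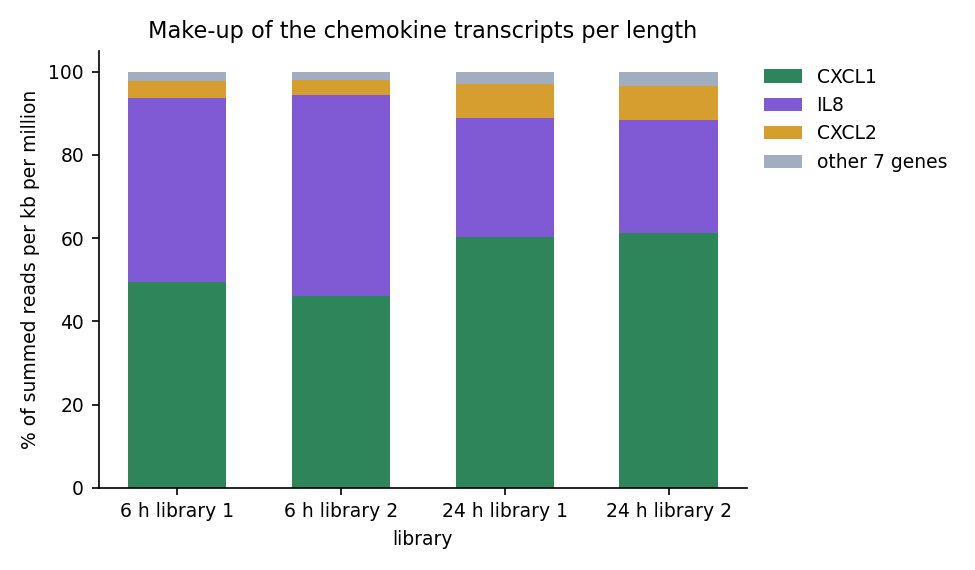
Share of each gene in the summed RPKM of the 10 chemokine genes, with 1 bar per library and the share in percent on the vertical axis. IL8 takes 44.4% and 48.5% of the sum at 6 h and 28.6% and 27.2% at 24 h, and CXCL1 takes the larger part at 24 h.

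Of the chemokine genes, 7 lie on chromosome 4, and 6 of them between positions 74606223 and 74965010 of hg19. The 25 other genes of the table between and beside these 7 were examined, of which 10 had enough reads. With a cutoff of 0.5 on the log2 fold change and an unadjusted P under 0.01, used throughout, 1 of these 10 was higher and 4 were lower at 24 h, and their median was 0.04. Over all genes, 17.4% were higher, 17.7% lower, and 35.1% either by this rule. EREG and BTC, both ligands of EGF family receptors, went in opposite directions, with log2 fold changes of -1.26 (standard error 0.0739) and 1.30 (standard error 0.138). The mean normalized count of EREG was 2387 ± 43.7 (SD, n = 2) at 6 h against 999 ± 70.9 at 24 h (edgeR adjusted P = 3.51e-14), and that of BTC 106 ± 3.38 against 261 ± 25.2 (edgeR adjusted P = 5.38e-09). MTHFD2L, the neighbor of CXCL2 and an enzyme of folate metabolism, fell by 1.18 on the log2 scale (adjusted P = 3.61e-10 from edgeR), whereas CXCL2 was higher. The uncalled neighbors RCHY1, SDAD1, NAAA, G3BP2, and USO1 had log2 fold changes of 0.46, 0.46, 0.27, 0.21, and -0.13, and SDAD1 reached 0.60 without BLU24H replicate 2 and 0.57 without BLU6H replicate 1. THAP6 and C4orf26 were the others that fell, and the call for C4orf26 was lost with DESeq2 (unadjusted P = 0.0254) and without BLU24H replicate 2 or BLU6H replicate 2. The platelet chemokine genes PF4, PF4V1, and PPBP, which lie among the members, and CXCL9 had 0 reads in all 4 libraries. Taken alone, a library with 0 reads allows up to 3 by counting error, and the 4 together allow fewer per library.

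Of the 38 other chemokine ligand genes, 26 had 0 reads in every library, and 32 had at most 3. Of the 5 with enough reads, 1 rose and 2 fell, where 17.4% and 17.7% of all genes did. So few genes cannot be set apart from these shares. Their median log2 fold change was -1.63, but it depended on the filter. It was 0.74 with no filter and -0.70 with at least 10 counts in every library. CCL26, eotaxin-3, which attracts eosinophils, had 177 and 196 normalized counts at 6 h and 24.9 and 23.4 at 24 h. This is -2.95 on the log2 scale (standard error 0.198, edgeR adjusted P = 5.87e-13). CCL4, which attracts monocytes and T cells, went from 54.0 and 73.9 to 25.9 and 15.6 (log2 fold change -1.63, standard error 0.279, edgeR adjusted P = 1.23e-05). CX3CL1, fractalkine, which like CXCL16 is made as a membrane protein, went from 380 and 279 to 487 and 501. This is 0.59 on the log2 scale (standard error 0.113, edgeR adjusted P = 5.52e-05), but 0.38, under the cutoff, without BLU6H replicate 2. CCL5 was at 0.23 on the log2 scale (standard error 0.197) and CCL3, with at most 11 reads, at -1.81 (standard error 0.697), and neither passed. CCL3 passed with a block for the replicate number and without BLU24H replicate 2.

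Receptor genes had few reads. Of 23 receptor genes, 17 had at most 3 reads in every library, CXCR1 and CXCR2 among them, and only CCR10 and the atypical receptor CCRL2 had enough to be compared. CCR10, a receptor of CCL27 and CCL28, fell from 86.4 and 69.1 to 30.9 and 40.9 normalized counts (log2 fold change -1.10, standard error 0.228, edgeR adjusted P = 0.00014). CCRL2 had at most 13 reads and a log2 fold change of -1.49 (standard error 0.560), and passed the cutoffs only with a block for the replicate number or without BLU24H replicate 2.

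The NF-κB system was compared next, since the κB element is common to the chemokine promoters. Of its 18 genes, 0 were called higher by edgeR (17.4% of all genes) and 5 lower (27.8%, beside 17.7% of all genes). Their median log2 fold change was -0.24. With no fold cutoff, 4 were higher at an unadjusted P under 0.05, and by DESeq2 with both cutoffs the count was 0. The 5 lower genes were TNFAIP3, TRAF1, BCL3, NFKBIA, and NFKBID, which are inhibitors, adaptors, or nuclear partners of NF-κB. Among the 13 not called, BIRC3, NFKBIZ, and TNIP1 had log2 fold changes of 0.08, 0.20, and 0.47. TNFAIP3, a deubiquitinase that ends the signal, had 2794 and 2733 normalized counts at 6 h and 1099 and 1054 at 24 h (log2 fold change -1.36, standard error 0.0714, edgeR adjusted P = 3.13e-15). NFKBIA, which holds NF-κB in the cytoplasm, had 14267 and 13742 at 6 h and 7913 and 7381 at 24 h (log2 fold change -0.87, standard error 0.0760, edgeR adjusted P = 1.19e-10). The log2 fold change was -1.28 for TRAF1 and -1.07 for BCL3. The DNA-binding subunits changed less, with log2 fold changes of 0.43 for RELA, -0.20 for NFKB1, -0.27 for RELB, and -0.48 for NFKB2, none past the cutoff. NFKB2 reached -0.52 with library size alone and without BLU6H replicate 2. RELA reached 0.52 without BLU24H replicate 1, and TNIP1 and IKBKB reached 0.52 and 0.51 without BLU24H replicate 2. NFKBIB reached -0.51 with library size alone, -0.59 without BLU24H replicate 1, and -0.53 without BLU6H replicate 1.

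Cytokines that induce chemokines, with their receptors and adaptors, went in both directions. Of 22 with enough reads, 8 fell (36.4%, beside 17.7% of all genes) and 3 rose (13.6%, beside 17.4%). Their median log2 fold change was -0.21. IL33, an alarmin of the IL1 family, had 811 and 753 normalized counts at 6 h and 22.9 and 10.7 at 24 h (log2 fold change -5.53, standard error 0.172, edgeR adjusted P = 2.97e-20). CSF3, the granulocyte growth factor, fell by 4.87 on the log2 scale (standard error 0.182), and the values of IL1A and IL1B were -3.55 and -2.03. TNF, with 145 and 141 normalized counts at 6 h and 59.8 and 69.1 at 24 h, fell by 1.15 on the log2 scale. The signaling genes IRAK2, IL1RAP, and IL1R1 fell by less, by 0.70, 0.64, and 0.57. IL6, LTB, and MYD88 went the other way, and IL6 rose from 861 and 941 to 2023 and 1868 normalized counts (log2 fold change 1.11, standard error 0.0756, edgeR adjusted P = 8.24e-13). At 24 h, IL6 and CCL2 were thus both higher, while IL8, CCL20, IL1A, and IL1B were lower.

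**Figure D5:**
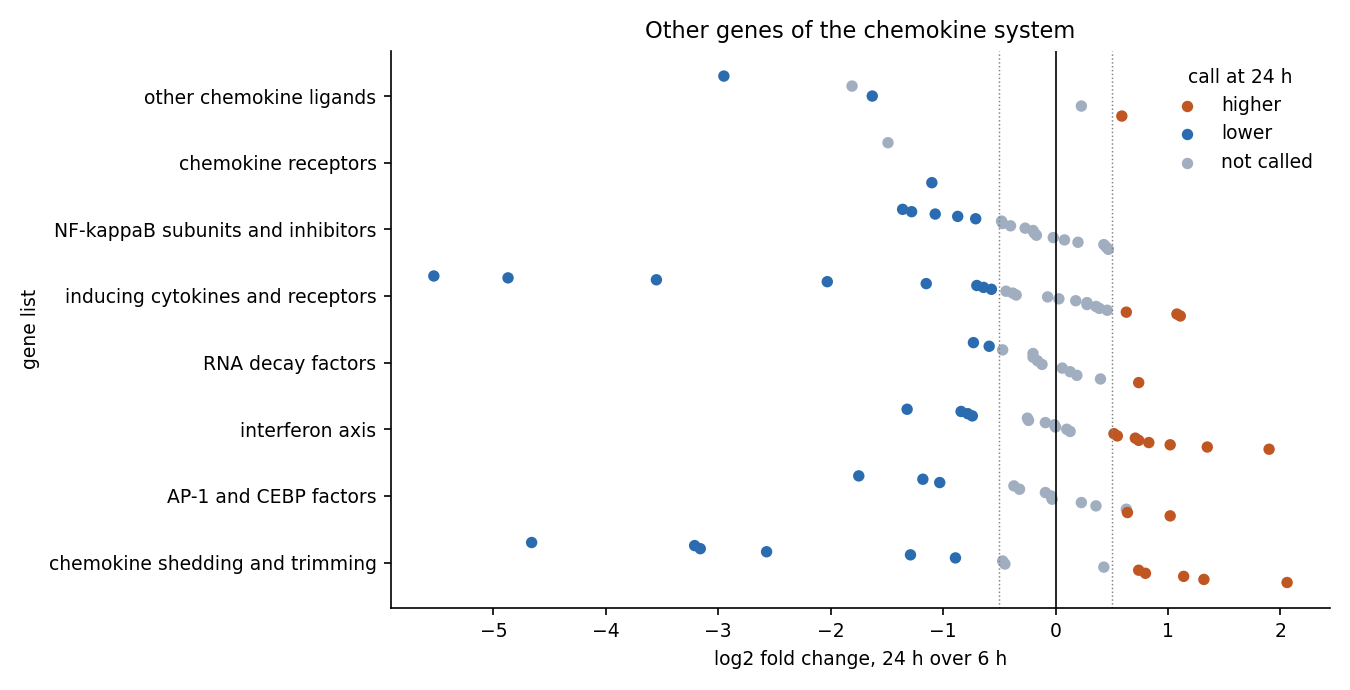
Log2 fold changes between 24 h and 6 h of the other genes of the chemokine system with enough reads, 1 point per gene and 1 row per list, with genes that passed the cutoffs in orange (higher) or blue (lower). Dotted lines mark 0.5 and -0.5, and the most negative points are IL33 at -5.53 and CSF3 at -4.87.

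The interferon genes were compared because CXCL10 answers to interferon. Of 19 with enough reads, 8 rose (42.1%, beside 17.4% of all genes) and 4 fell (21.1%, beside 17.7%). Their median log2 fold change was 0.10. IRF7, a transcription factor of the interferon response, had 844 and 768 normalized counts at 6 h and 2132 and 1974 at 24 h (log2 fold change 1.35, standard error 0.0765, edgeR adjusted P = 1.58e-14). JAK2, IFIH1, IRF9, JAK1, STAT2, and DDX58 rose as well, JAK2 by a log2 fold change of 1.02. The receptor genes IFNGR2, IFNAR2, and IFNAR1 fell, with log2 fold changes of -1.32, -0.78, and -0.74, and IFNE was lower with at most 58 reads. IRF9 and IFNE did not pass with DESeq2 (unadjusted P = 0.0214 and 0.0413) or without BLU24H replicate 1, nor IRF9 without BLU6H replicate 1 and IFNE without BLU6H replicate 2. Without BLU6H replicate 2, STAT2 and DDX58 were at 0.48, and DDX58 was at 0.49 without BLU24H replicate 1. Beside these, CXCL10 was at -0.43 with its standard error of 0.374, and its relatives CXCL9 and CXCL11 had 0 and at most 9 reads.

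Among AP-1 and C/EBP genes, whose products bind chemokine promoters beside NF-κB, 2 of 13 rose and 3 fell, with a median of -0.04. These are 15.4% and 23.1%, beside 17.4% and 17.7% of all genes. FOS fell from 271 and 226 normalized counts to 89.7 and 58.4 (log2 fold change -1.75, standard error 0.167, edgeR adjusted P = 7.24e-10), and JUNB and ATF3 fell by 1.18 and 1.03. FOSL1 and JUN rose, with log2 fold changes of 1.02 and 0.64. CEBPB, at -0.04 (standard error 0.0712), was not called. Of 12 genes whose products act on short-lived mRNAs, 1 rose and 2 fell, with a median of -0.14. The shares were 8.33% and 16.7%, under those of all genes. ZFP36L1, which promotes decay of AU-rich mRNAs, rose by 0.74 on the log2 scale (edgeR adjusted P = 1.83e-09), and ZC3H12A, an RNase that cleaves cytokine mRNAs, fell by 0.73 (edgeR adjusted P = 8.71e-10). TIA1 fell by 0.59. ZFP36L2, at -0.47, was not called, but it reached -0.57 without BLU24H replicate 2 and -0.54 without BLU6H replicate 2. With library size alone it was at -0.52, and 3 of the 12 genes were called lower.

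Among genes for proteins that release, trim, or hold chemokines, mRNA counts of 5 of 14 were higher and of 6 lower, with a median of -0.46. These are 35.7% and 42.9%, beside 17.4% and 17.7% of all genes. ADAM10, which sheds CXCL16 from the membrane, was at 0.43 on the log2 scale (standard error 0.0799), under the cutoff, but at 0.55 without BLU6H replicate 1, and ADAM17, a related protease, one of -0.89 (standard error 0.0716, edgeR adjusted P = 2.47e-11). DPP4, which trims CXCL10 and other chemokines at the amino end, rose by 0.80 on the log2 scale (edgeR adjusted P = 1.01e-09). The matrix proteases MMP1, MMP3, and MMP9 fell, with log2 fold changes of -4.66, -3.21, and -2.57, while MMP2 and MMP7 rose by 2.06 and 1.32. The heparan sulfate carriers SDC1 and SDC4 went in opposite directions, with SDC1 falling from 14063 and 13141 to 1540 and 1503 normalized counts (log2 fold change -3.16, standard error 0.0807, edgeR adjusted P = 3.8e-22) and SDC4 rising by 1.14. CTSB rose and CTSL fell, with log2 fold changes of 0.74 and -1.29.

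The genes most like IL8, the member with the highest mean normalized count (not adjusted for length), in centered log2 normalized count over the 4 libraries were ZNF714, TMEM107, and IFFO1, among 10747 genes with a mean of at least 100. Their root mean square distances from IL8 were 0.0295, 0.0332, and 0.0490, and their log2 fold changes were -1.41, -1.38, and -1.46. The measure rests on 4 libraries and is given as a description.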

How the data were processed

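RNA from TPC1 cells after 6 h or 24 h of BLU6864 was sequenced in 2 libraries per time point. Per the labels' processing notes, reads were aligned to hg19 with STAR 2.3 and compared with DESeq2, and the methods name another STAR version. The counting program, its strand setting, and the treatment of reads with several matches are not given in the sources used here. The authors deposited raw read counts per gene and a normalized signal, the count divided by a size factor per library, with its mean. The deposited log2 fold change with its standard error, Wald score, and unadjusted and adjusted p-value hold the authors' comparison and were not used. The values given here come from the raw counts and not from the deposited normalized signal.

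Raw counts were tested here with edgeR 4.0.16 in R 4.3.3 (filterByExpr, TMM, quasi-likelihood test, time as the only factor), which kept 12876 genes. Calls needed a log2 fold change beyond 0.5 in either direction with an unadjusted P under 0.01, and Benjamini-Hochberg adjustment ran over all genes kept. The methods give these sizes of cutoff for lower genes only and do not say whether P was adjusted, so the higher direction and the unadjusted P were chosen here. The standard error is the size of the log2 change over the root of F. Normalized counts were scaled to the mean effective (TMM) library size. RPKM used GENCODE v44 transcript lengths, matched by identifier. On simulated data for this comparison, with 12876 genes, 96.0% of genes with a log2 change of 1 and 100% of those with 2 were recovered. Of unchanged genes, 0.158% were called. The simulated spread followed the fitted trend, and only 100 genes were changed at each size. In the data 35.1% of genes were called, so these rates need not hold there. Alternatives were DESeq2 1.42.0, upper quartile scaling, library size alone, no filter, a minimum of 10 counts per library, a replicate block, calls by adjusted P under 0.05, and omission of each library in turn. Promoters were read from RefSeq. Plots used Python 3.11.15 and matplotlib 3.10.9. Intervals cover counting error only.

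The chemokines and all gene lists were chosen with earlier results of these data known. Named were all 10 chemokines, in each list every gene called (in full for at most 4) or else the one with the largest change, the genes beside the chromosome 4 members, and the 3 genes most like the member with the highest mean normalized count, which is IL8. Genes named beside these without a call were chosen after their values were seen. PECAM1 was not analysed here, and some listed genes are not reported here.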

Additional observations from a re-analysis of the deposited data

How the results depend on the processing

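The direction of all 8 chemokine genes with enough reads was the same under every alternative that gave a value, with log2 fold changes from 1.61 to 1.89 for CXCL16, from 1.36 to 1.45 for CCL2, from -0.37 to -0.25 for CXCL1, from -0.99 to -0.88 for CXCL3, and from -0.71 to -0.18 for CXCL10. CCL20 was not tested with at least 10 counts in every library. The alternatives reuse the same 4 libraries, and the times did not overlap for any of the 8 genes. The unchanged direction was therefore nearly fixed in advance and adds no support. The median of the chemokine genes, -0.37, was -0.18 with no filter, which adds CXCL5 and CXCL6, and from -0.54 to -0.21 with each library left out. The same fits, in which a lone library is assumed to vary like the others, moved the medians of the other ligands (from -1.80 to -0.85), receptors (from -1.95 to -0.89), inducing cytokines (from -0.21 to -0.13), and interferon genes (from 0.05 to 0.18), and the counts of NF-κB genes called higher (from 0 to 2), other ligands called higher (from 0 to 1), and receptors called lower (from 1 to 2). Lists with few genes tested also moved with the filter. The median of the other ligands was 0.74 with no filter and -0.70 with at least 10 counts, that of the inducing cytokines 0.00 with no filter, and that of the white blood cell markers 0.95 in place of -0.87 with at least 10 counts, since other genes enter or leave.

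With an adjusted P under 0.05 and no fold cutoff, 4247 genes were higher and 4196 lower, against 2238 and 2278. By this rule the higher and lower genes numbered 5 and 5 for AP-1 and C/EBP, 4 and 11 for NF-κB, and 3 and 4 for RNA decay, with 9 higher inducing cytokines and 2 lower receptors. The median of all genes was -0.0398 with library size alone and 0.0326 with upper quartile scaling. The replicate numbers occur at both times, but the deviations of same-numbered libraries correlated by only 0.0691 and no source says what they mark. A replicate block gave 2283 higher and 2313 lower genes, 2 receptors (CCR10 and CCRL2) were lower in place of 1, and CCL3 was also called. With 2 libraries per group, outliers were not tested.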
